A study of Mus musculus with 4 samples.

Results

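The genes described here encode the fibroblast growth factors (Fgf), Wnt proteins, bone morphogenetic proteins (Bmp) and growth differentiation factors (Gdf) of the mouse. They were taken by name: every non-control probe annotated as Fgf, Wnt, Bmp or Gdf with a number, and for Wnt an optional a or b, was kept. This gave 59 genes of the 27630 genes or unnamed transcripts on the array, read by 85 of its probes. There were 21 Fgf, 19 Wnt, 9 Bmp and 10 Gdf genes, and each gene was represented by its brightest probe.

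Expression was measured at embryonic stage E13.5 in limb and brain of embryos with conditional ablation of Rest (CKO) and of wild type (WT) embryos, on a mixed 129 and C57BL/6 background. Rest encodes a repressor that keeps neuronal genes low outside neurons, and the study asked about derepression of neuronal genes when it is lost. Per the labels, the ablation used a floxed Rest gene and a doxycycline-inducible Cre. Doxycycline is recorded from stage E8.5 to E13.5 for all 4 samples, WT included. Neither the promoter that drives Cre nor the number of embryos per RNA sample is given in the sources used. The groups were CKO limb, WT limb, CKO brain and WT brain, with 1 single-colour array each, so no value has a replicate and no test within a tissue was possible.

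Fgf, Wnt, Bmp and Gdf proteins are the main secreted signals that pattern the embryo. Fgf proteins act through receptor tyrosine kinases and Wnt proteins through Frizzled receptors, while Bmp and Gdf proteins belong to the TGF-beta superfamily and act through receptor kinases that phosphorylate Smad proteins. In the limb bud they set the growth of the ridge and the mesenchyme below it, the digits and the joints. In the brain they mark signalling centres such as the midbrain-hindbrain boundary, the cortical hem and the roof plate. Not every gene so named makes such a signal: Bmp1 is a protease that processes procollagen and the Bmp antagonist chordin, and Fgf11, Fgf12, Fgf13 and Fgf14 make proteins that stay inside the cell and bind sodium channels.

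Values are log2 signals relative to each array's 75th percentile, which stands at 0, and they compare arrays for 1 probe, not one gene with another. The 4 arrays lay on 1 slide. Spots well above background made up 68.6% on CKO limb, 62.7% on WT limb, 70.7% on CKO brain and 64.5% on WT brain, so a dim gene passed more readily on the CKO arrays. All 3 Rest probes were lower in CKO, with differences from WT of -4.10 to -2.01 log2 in limb and of -0.91, -3.57 and a bound of -2.72 in brain. The sources used do not say whether they lie in the floxed stretch. The tissue labels were matched by the summed signal of 6 neuronal markers, at 7.95 in CKO brain and 7.99 in WT brain, against 2.75 in CKO limb and 0.94 in WT limb, and by Hoxd13, a digit factor, at 3.40 in CKO limb and 3.65 in WT limb and not above background in brain. The error available is technical only: the difference of CKO and WT over paired spots of 245 probes, 10 spots each, had a median SD of 0.049 log2 for limb, 0.054 for brain and 0.31 for dim probes of either tissue.

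Of the 59 genes, 32 were well above background on all 4 arrays, 4 on 3 arrays, 10 on 2 arrays and 4 on 1 array. The remaining 9 were not well above background on any array: Bmp10, Bmp15, Fgf16, Fgf17, Fgf23, Gdf2, Gdf3, Wnt2b and Wnt8a. By array, the numbers above background were 44 in CKO limb, 40 in WT limb, 42 in CKO brain and 38 in WT brain. Fgf1 and Fgf21 passed on the CKO limb array alone, Wnt1 on CKO brain alone and Fgf22 on WT brain alone. Fgf20 and Gdf15 passed on both CKO arrays and on neither WT array. Fgf20 had -4.92 in CKO limb and -5.75 in CKO brain, against -5.02 in WT limb and -7.49 in WT brain. Gdf15 had -5.56 in CKO limb and -5.66 in CKO brain, below its -4.98 in WT limb and -5.31 in WT brain. The lowest signals called above background were -5.76 in CKO limb and -6.19 in CKO brain, but -4.95 in WT limb and -5.36 in WT brain. A dim signal could thus pass on a CKO array and miss at the same level on a WT array. The 4 genes above background on 3 arrays were Gdf6, which missed on CKO brain, and Fgf7, Wnt2 and Bmp2, which missed on WT brain. For Fgf7 and Wnt2 the signals in WT brain (-5.27 and -5.79) were still above those in CKO brain (-5.80 and -5.99).

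**Figure D1:**
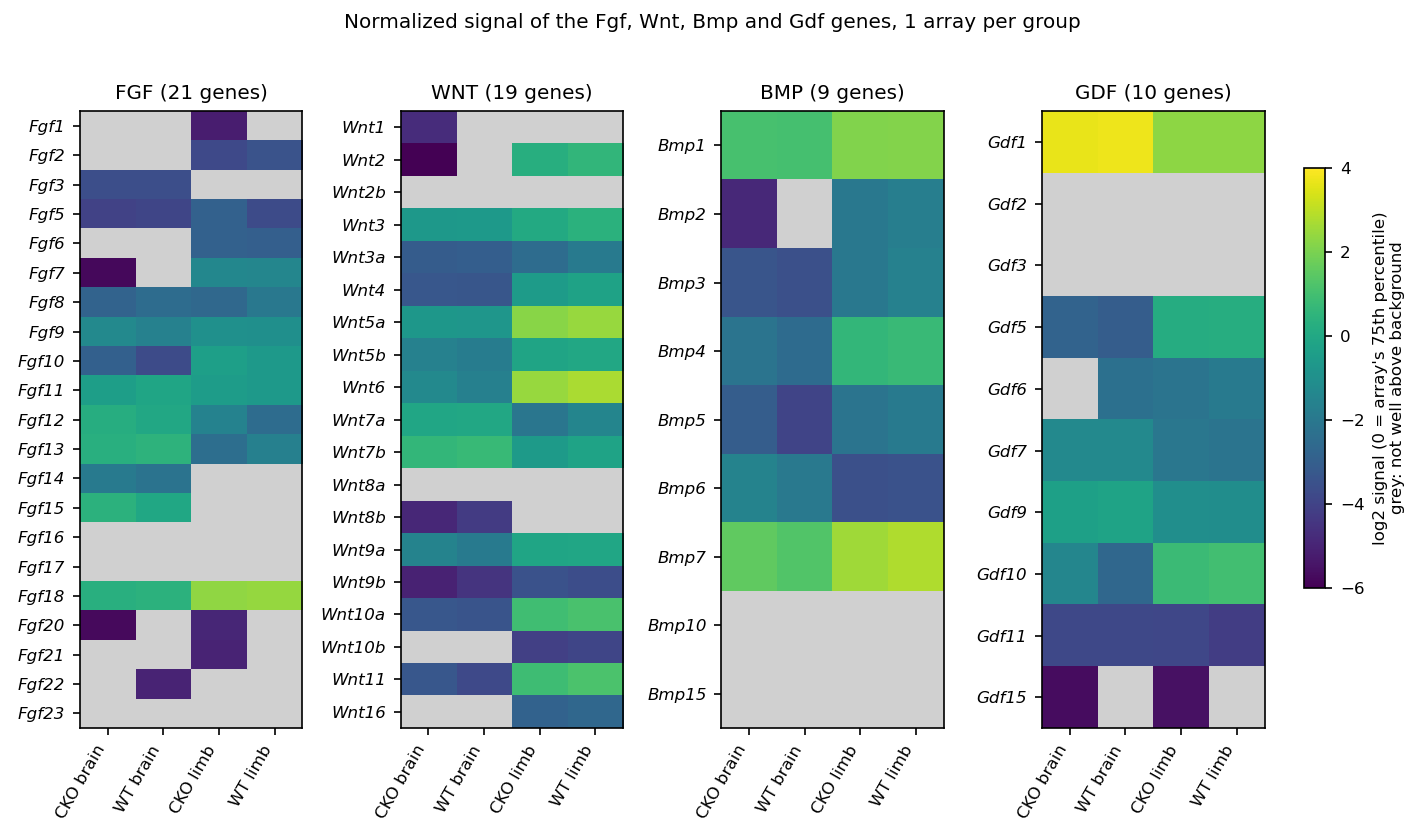
Log2 normalized signal of each of the 59 genes on the 4 arrays, in 1 panel per family, with the arrays as columns; grey cells were not well above background. Colours compare arrays within a row. The Wnt rows are mostly brighter in limb, 3 Fgf rows (Fgf3, Fgf14, Fgf15) are coloured on both brain arrays and neither limb array, and 2 (Fgf2, Fgf6) on both limb arrays and neither brain array.

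The first comparison set brain against limb in both genotypes, and showed most of the measured Wnt and Bmp genes higher in limb, and the intracellular Fgf genes Fgf12 and Fgf13 with Wnt7a, Wnt7b, Bmp6 and 3 Gdf genes higher in brain. The test was limma with tissue and genotype as terms, fitted on 15629 genes well above background on all 4 arrays with Benjamini-Hochberg adjustment over all of them. It has 1 residual degree of freedom, from how far the tissue difference varied between the genotypes. That spread is combined with a prior estimated from all genes fitted (SD 0.068 log2, 1.54 degrees of freedom). Small SEs therefore rest in large part on the prior. Of the 32 members fitted, 8 were higher in brain, where 32.2% of all genes were, and 18 were lower in brain, where 34.4% were.

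Wnt genes made up 10 of those 18. Wnt11, which acts in non-canonical signalling, had -3.29 in CKO brain and -3.81 in WT brain, against 0.89 in CKO limb and 1.18 in WT limb. Its limma difference was -4.58 (SE 0.26, adjusted p = 0.0068), the largest of the members fitted. Wnt10a, an ectodermal Wnt, had -3.29 in CKO brain and -3.40 in WT brain, against 0.94 in CKO limb and 1.13 in WT limb (limma -4.38, SE 0.11, adjusted p = 0.0058). Wnt6, also ectodermal, had -1.29 in CKO brain and -1.65 in WT brain, against 2.44 in CKO limb and 2.75 in WT limb (limma -4.06, SE 0.21, adjusted p = 0.0065). Wnt5a drives outgrowth of the limb through non-canonical signalling. It had -0.70 in CKO brain and -0.76 in WT brain, against 2.21 in CKO limb and 2.47 in WT limb (limma -3.07, SE 0.11, adjusted p = 0.0059). Wnt4, a Wnt of developing joints, had -3.28 in CKO brain and -3.32 in WT brain, against -0.51 in CKO limb and -0.26 in WT limb (limma -2.92, SE 0.11, adjusted p = 0.0059). In each of these 5 genes both brain arrays lay below both limb arrays. The other 5, Wnt3, Wnt3a, Wnt5b, Wnt9a and Wnt9b, had limma differences of -1.63 to -0.89. Without the filter on dim probes, 2 of them missed the threshold, with limma adjusted p values of 0.076 for Wnt3a and 0.077 for Wnt9b.

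Wnt7a and Wnt7b ran the other way. Wnt7a sets the dorsal side of the limb and is also made by neural progenitors. It had -0.09 in CKO brain and -0.01 in WT brain, against -2.06 in CKO limb and -1.46 in WT limb, a limma difference of 1.71 (SE 0.17, adjusted p = 0.012). Wnt7b, which with Wnt7a acts on brain vessels, had 0.61 in CKO brain and 0.74 in WT brain, against -0.54 in CKO limb and -0.20 in WT limb (limma 1.05, SE 0.08, adjusted p = 0.0091). These were the 2 Wnt genes higher in brain by the test.

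Among the Wnt genes outside the test, Wnt8b, a marker of the cortical hem, was measured in brain alone, at -4.88 in CKO and -4.27 in WT. Wnt16 and Wnt10b were measured in limb alone. Wnt16 had -2.84 in CKO limb and -2.66 in WT limb, at least 10.2-fold above brain in CKO and at least 6.48-fold in WT. Wnt2, a mesenchymal Wnt, had -5.99 in CKO brain and was not above background in WT brain, against 0.27 in CKO limb and 0.57 in WT limb. This was 76.2-fold lower in brain than in limb in CKO and at least 60.9-fold lower in WT.

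The Bmp genes split likewise. Bmp4, a ligand of limb mesenchyme and of the dorsal forebrain, had -2.15 in CKO brain and -2.51 in WT brain, against 0.63 in CKO limb and 0.77 in WT limb (limma -3.03, SE 0.17, adjusted p = 0.0067). Bmp3 and Bmp7 were also lower in brain, with limma differences of -1.68 and -1.25. The protease gene Bmp1 had 1.09 in CKO brain and 1.05 in WT brain, against 2.09 in CKO limb and 2.14 in WT limb (limma -1.05, SE 0.06, adjusted p = 0.0068). Bmp6 was the single Bmp gene higher in brain, with -1.51 in CKO brain and -1.95 in WT brain, against -3.57 in CKO limb and -3.50 in WT limb (limma 1.80, SE 0.17, adjusted p = 0.011). With the mean of its probes in place of the brightest, the limma adjusted p for Bmp6 was 0.095.

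Of the Gdf genes, Gdf5, which marks the forming joints, had -2.82 in CKO brain and -3.04 in WT brain, against 0.17 in CKO limb and 0.24 in WT limb (limma -3.14, SE 0.10, adjusted p = 0.0058). Gdf10 had -1.41 in CKO brain and -2.68 in WT brain, against 0.80 in CKO limb and 0.97 in WT limb (limma -2.93, SE 0.45, adjusted p = 0.023). The 2 brain arrays differed for Gdf10 far more than the 2 limb arrays, and without the filter on dim probes its limma adjusted p was 0.060. Gdf1, which shares its transcript with Cers1 so that the probe may read either product, had 3.68 in CKO brain and 3.75 in WT brain, against 2.29 in both CKO limb and WT limb (limma 1.43, SE 0.06, adjusted p = 0.0060). Gdf7, a roof plate signal, had -1.28 on both brain arrays, against -2.04 in CKO limb and -2.15 in WT limb (limma 0.81, SE 0.07, adjusted p = 0.0092). Gdf9, best known from the oocyte, had -0.33 in CKO brain and -0.20 in WT brain, against -1.07 in CKO limb and -1.09 in WT limb (limma 0.82, SE 0.07, adjusted p = 0.0099).

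Several secreted Fgf genes were above background in 1 tissue alone and so lay outside the test, while Fgf5, Fgf8 and Fgf9 were fitted and did not pass. The share of all genes above background in 1 tissue alone was not counted. Fgf15, a target of hedgehog signalling in the embryonic brain and a gut hormone in the adult, had 0.42 in CKO brain and -0.03 in WT brain and was not above background in limb. Brain was at least 72.3-fold above limb in CKO and at least 30.2-fold in WT. Fgf3, a hindbrain and ear signal, had -3.62 in CKO brain and -3.61 in WT brain, and was also not above background in limb. The reverse held for 2 genes and nearly for another. Fgf2 had -3.79 in CKO limb and -3.44 in WT limb and was not above background in brain. Fgf6, a factor of muscle precursors, had -2.89 in CKO limb and -2.98 in WT limb and was not above background in brain. Fgf7, a mesenchymal signal to epithelium, was lower in brain than in limb 21.6-fold in CKO and at least 14.7-fold in WT. Fgf10, the mesenchymal signal that starts the limb bud, had -2.95 in CKO brain and -3.73 in WT brain, against -0.36 in CKO limb and -0.58 in WT limb (limma -2.87, SE 0.18, adjusted p = 0.0072). Fgf18, a signal in forming cartilage and bone, had 0.32 in CKO brain and 0.41 in WT brain, against 2.34 in CKO limb and 2.40 in WT limb (limma -2.0, SE 0.05, adjusted p = 0.0058).

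The 4 intracellular Fgf genes were not alike. Fgf13 had 0.32 in CKO brain and 0.46 in WT brain, against -2.39 in CKO limb and -1.64 in WT limb (limma 2.41, SE 0.20, adjusted p = 0.0093). Fgf12 had 0.22 in CKO brain and -0.02 in WT brain, against -1.57 in CKO limb and -2.47 in WT limb (limma 2.12, SE 0.21, adjusted p = 0.012). Fgf14 had -1.91 in CKO brain and -2.18 in WT brain and was not above background in limb, a gap of at least 12.5-fold in CKO and at least 6.82-fold in WT. Fgf11 did not pass, with -0.38 in CKO brain, -0.11 in WT brain, -0.49 in CKO limb and -0.61 in WT limb (limma 0.30, SE 0.13, adjusted p = 0.15). The other 5 members fitted without passing were Bmp5, Fgf5, Fgf8, Fgf9 and Gdf11, with limma differences of -1.46 to 0.20 and adjusted p values of 0.054 to 0.18.

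**Figure D2:**
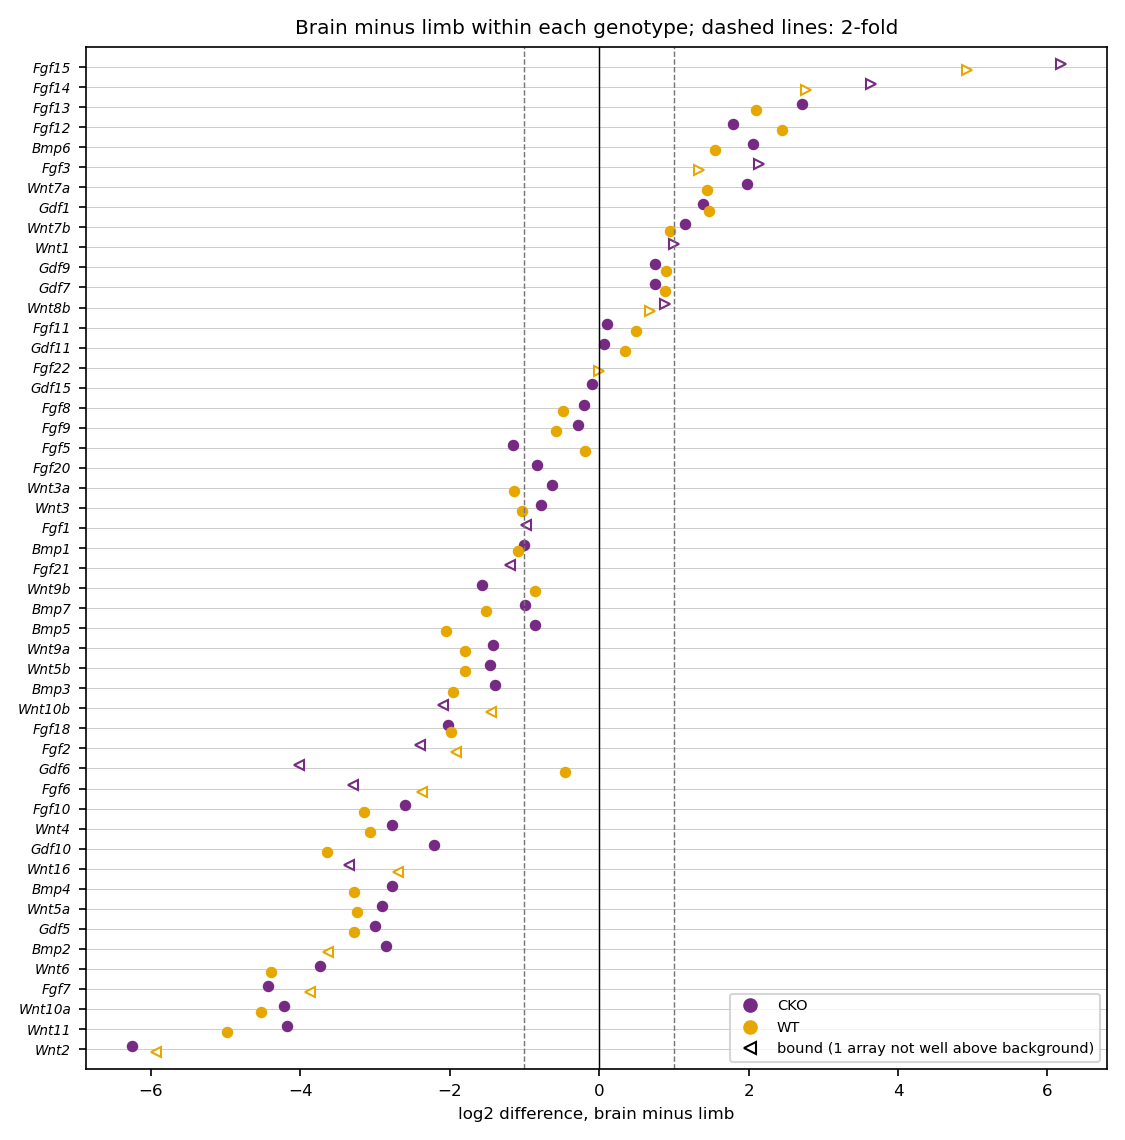
Log2 difference of brain minus limb for each gene above background on an array of the pair, for CKO (purple) and WT (yellow); open triangles are bounds where 1 array was not well above background, and dashed lines mark 2-fold. In CKO 10 genes lie past 2-fold on the right and 25 on the left, and in WT 8 and 25, from Fgf15 at the top to Wnt2 at the bottom.

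Counted within each genotype, with bounds included, 10 of 49 members compared were at least 2-fold higher in brain in CKO (15.1% of all genes were) and 25 at least 2-fold lower (16.9%). In WT 8 of 45 were higher (15.8% of all genes) and 25 lower (18.8%). By position on mm9, 16 of the genes fell into 8 pairs whose probes lay within 200 kb of each other. In 4 pairs both genes had the same tissue pattern. Wnt6 and Wnt10a, 19.1 kb apart on chromosome 1, were both lower in brain. So were Wnt3a and Wnt9a, 85.0 kb apart, and Wnt3 and Wnt9b, 88.5 kb apart, both on chromosome 11. Fgf3 and Fgf15, 57.8 kb apart on chromosome 7, were both measured in brain alone. Apart from this pair the matches were all between Wnt genes. Of the 12 Wnt genes fitted, 10 were lower in brain, where 34.4% of all genes were. How often neighbours match among all genes was not counted, so the matches are not read as a result of position. The other 4 pairs did not match: Wnt1 was detected in CKO brain while Wnt10b, 21.1 kb away on chromosome 15, was detected in limb, while Fgf23 beside Fgf6, Gdf2 beside Gdf10 and Fgf17 beside Bmp1 were not above background on any array.

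The second comparison set CKO limb against WT limb, with each gene read by its brightest probe. Of the 44 members above background on at least 1 limb array, none reached 2-fold in either direction. Of all genes, 2.51% were at least 2-fold higher in CKO limb and 2.15% at least 2-fold lower. With shares this low, none of 44 is near the share of all genes and is not read as a trait of these genes. The 2 dimmer probes of Fgf12 did pass 2-fold, as given below. At 1.5-fold, 2 members were higher (Fgf12 and Fgf5, where 4.81% of all genes were) and 4 were lower (Fgf13, Fgf8, Wnt7a and Wnt3a, where 4.71% were). The normexp correction models the local background under the raw spot signal and adds an offset of 50 to each spot. The offset by itself draws log2 differences of dim spots towards 0, and its share was not separated. With normexp Fgf12 and Fgf13 stayed past 1.5-fold, at 0.64 and -0.61 log2. The other 4 did not, at 0.36 for Fgf5, -0.49 for Fgf8, -0.48 for Wnt7a and -0.46 for Wnt3a. In limb 13 members had more than 1 probe measured on both arrays, and in 11 of them all such probes had the same sign, Fgf9 and Fgf13 being the exceptions.

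Fgf12 was the member with the largest difference in limb, and its 3 probes were each higher in CKO limb. The brightest probe (mm9 chr16:28160281-28160340) had -1.57 in CKO limb and -2.47 in WT limb, a difference of 0.90 or 1.87-fold. Another probe had -2.34 in CKO limb and -3.61 in WT limb, a difference of 1.27 or 2.41-fold. The last had -3.07 in CKO limb and -4.13 in WT limb, a difference of 1.07 or 2.09-fold. The 3 probes thus gave the same direction at sizes about the 2-fold line. In brain the same probes differed by 0.22 to 0.32 log2, with CKO also above WT.

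The 2 dimmer Fgf12 probes are shown because their positions cover stretches much longer than their 60 bases, as those of probes across exon junctions do. Both lie on the minus strand of chromosome 16, at mm9 chr16:28189673-28373012 for one and chr16:28398434-28564679 for the other. Capitals in the other mark its first 19 bases, which were found in 1 of the 4 Fgf12 start windows of RefSeq (GRCm38.p6 chr16:28564446-28564745). The one at lower coordinates held no such stretch and is in lower case throughout.
Fgf12 probe at lower coordinates: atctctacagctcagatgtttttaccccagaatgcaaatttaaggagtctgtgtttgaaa
Fgf12 probe at higher coordinates: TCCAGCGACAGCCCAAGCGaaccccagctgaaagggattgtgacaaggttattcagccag

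Neuronal marker genes moved alongside Fgf12 in limb. All 6 were above WT in CKO limb, 5 of them by at least 2-fold (Tubb3, Dcx, Stmn2, Rbfox3 and Elavl3). Their summed signal, given above for the tissue labels, was higher in CKO limb than in WT limb and in both below that of brain, and Elavl3 was not above background in WT limb. Their part in the Fgf12 difference was not tested, and in whole tissue more cells of a type cannot be told apart from more RNA per cell. Promoter windows of 300 bases were searched on both strands for TTCAGCACC and GGACAGC, which come from either side of the Rest binding element and do not overlap each other. Of the 52 windows matched to 41 members, none held TTCAGCACC, found in 0.371% of all 32851 windows, and 1 (Fgf22) held GGACAGC, found in 6.56%. No match says only that these letters are not in these windows.

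Fgf13 went against Fgf12 but did not hold across its own probes. Its brightest probe, on the X chromosome, had -2.39 in CKO limb and -1.64 in WT limb, a difference of -0.75. Another had -3.76 in CKO limb and -4.0 in WT limb (0.25), a further one -4.48 in CKO limb and -4.18 in WT limb (-0.30), and the last was not above background in limb. With all probes averaged, the difference was -0.09. Fgf14 was not above background on either limb array with any of its 3 probes, and Fgf11 differed by 0.12 in limb and by -0.26 in brain.

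The Fgf13 probe that was higher in CKO limb and a Fgf14 probe are shown because they come from 2 related genes and resemble each other in sequence. Aligned without gaps at a shift of 7 bases, they share 38 of 53 bases, in capitals. The Fgf13 probe lies at mm9 chrX:56320589-56320648 and the Fgf14 probe at chr14:124383009-124383068, both on the minus strand.
Fgf13 probe: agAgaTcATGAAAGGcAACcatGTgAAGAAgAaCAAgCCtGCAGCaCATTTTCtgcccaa
Fgf14 probe: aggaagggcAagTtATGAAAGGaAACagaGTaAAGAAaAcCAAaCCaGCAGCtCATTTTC
In limb the Fgf14 probe was not above background, at -5.54 in CKO and -5.66 in WT, while the Fgf13 probe was above it on both arrays.

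Fgf5, which ends the growth phase of hair and is made in limb connective tissue, had -2.89 in CKO limb and -3.72 in WT limb, a difference of 0.83 or 1.78-fold from 1 spot per array. In brain it had -4.04 in CKO and -3.90 in WT. Fgf8, the signal of the apical ectodermal ridge at the tip of the limb bud, was lower in CKO on every one of the 10 spots of its brightest probe. Its other probe was not above background on any array. The brightest probe had -2.61 ± 0.07 in CKO limb and -2.0 ± 0.12 in WT limb (SD over 10 spots of 1 array), a difference of -0.61 ± 0.11. In brain it had -2.81 ± 0.08 in CKO and -2.48 ± 0.09 in WT, a difference of -0.33 ± 0.08, with all 10 spots lower as well. These SDs cover spotting and scanning, not differences between embryos.

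**Figure D3:**
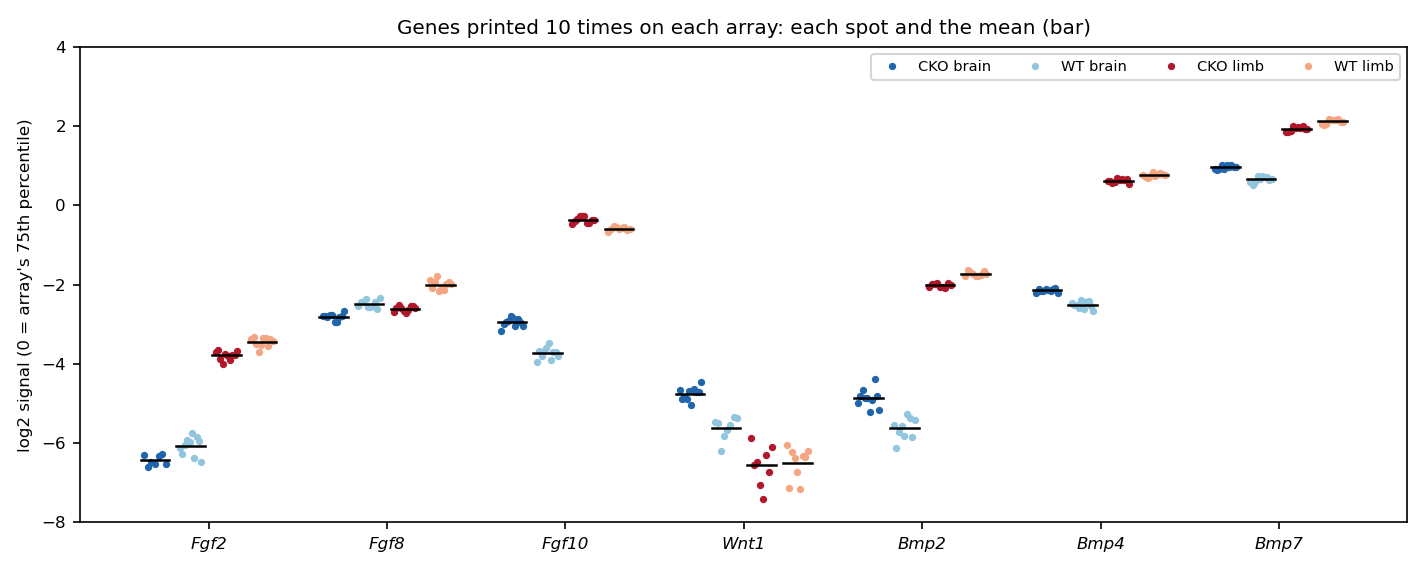
Log2 signal of every spot of the 7 genes printed 10 times per array, with the mean as a bar, for CKO and WT brain (dark and light blue) and CKO and WT limb (dark and light red). Fgf8 spots lie lower in CKO than in WT in both tissues, and Fgf10, Bmp4 and Bmp7 spots of CKO brain lie above those of WT brain.

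The Wnt genes in limb were mostly lower in CKO by a small amount. Of 15 measured on both limb arrays, 14 were lower in CKO limb. The median was -0.26 and the range -0.61 to 0.18. Over all 16671 genes measured on both limb arrays, 58.9% were lower, with a median of -0.03. Wnt7a differed by -0.61 and Wnt3a by -0.60, from the levels of -2.06 in CKO limb and -1.46 in WT limb for Wnt7a, and of -2.46 in CKO limb and -1.86 in WT limb for Wnt3a. In brain these 2 genes differed by -0.08 and -0.09, and Wnt3a had -3.10 in CKO brain and -3.01 in WT brain. Wnt9b was the single Wnt gene above WT in CKO limb, by 0.18. The Wnt genes with 2 probes on both limb arrays (Wnt3, Wnt5a, Wnt5b and Wnt6) had both probes lower in CKO, with differences of -0.52 to -0.15. The count of 14 stood under each of the 5 other scalings and probe choices.

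Several of these Wnt genes are made by surface ectoderm, and the 4 epidermal markers were lower in CKO limb as well, with differences of -0.59 for Krt5, -0.41 for Krt14, -0.68 for Krt15 and -0.94 for Krtdap. Their summed signal was 6.22 log2 in CKO limb and 6.84 in WT limb, with none of the 4 below background in limb. Other marker lists were lower in CKO limb too. The 4 erythroid markers were each at least 2-fold lower, with a median of -1.60 and a summed signal of 7.62 log2 in CKO limb and 8.79 in WT limb. That sum was nearly all Hba-a1, at 7.59 in CKO limb and 8.75 in WT limb. All 4 bone markers were lower, with a median of -0.34 and a summed signal of 0.32 in CKO limb and 0.83 in WT limb. Of 8 limb mesenchyme markers 6 were lower, with a median of -0.20 and a summed signal of 5.67 in CKO limb and 5.82 in WT limb. None of these markers was below background in limb. Not every list went this way. All 4 muscle markers were higher in CKO limb, with a median of 0.47, and 2 of 3 endothelial markers, with a median of 0.05. Of 5 cartilage markers measured on both limb arrays 4 were lower, with a median of -0.19, while Col9a1 was higher by 0.69. The part of these cell types in the Wnt and Bmp differences was not tested. The 7 Bmp genes measured on both limb arrays were all lower in CKO limb too, with differences of -0.37 to -0.04 and a median of -0.22. Bmp2, Bmp4 and Bmp7 have probes of 10 spots, and their differences were -0.29 ± 0.03, -0.14 ± 0.03 and -0.19 ± 0.02 (SD over 9, 10 and 10 spots), with every spot lower. The Fgf and Gdf genes did not share a direction in limb: 4 of 11 and 3 of 7 were lower, with medians of 0.03 and 0.01.

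**Figure D4:**
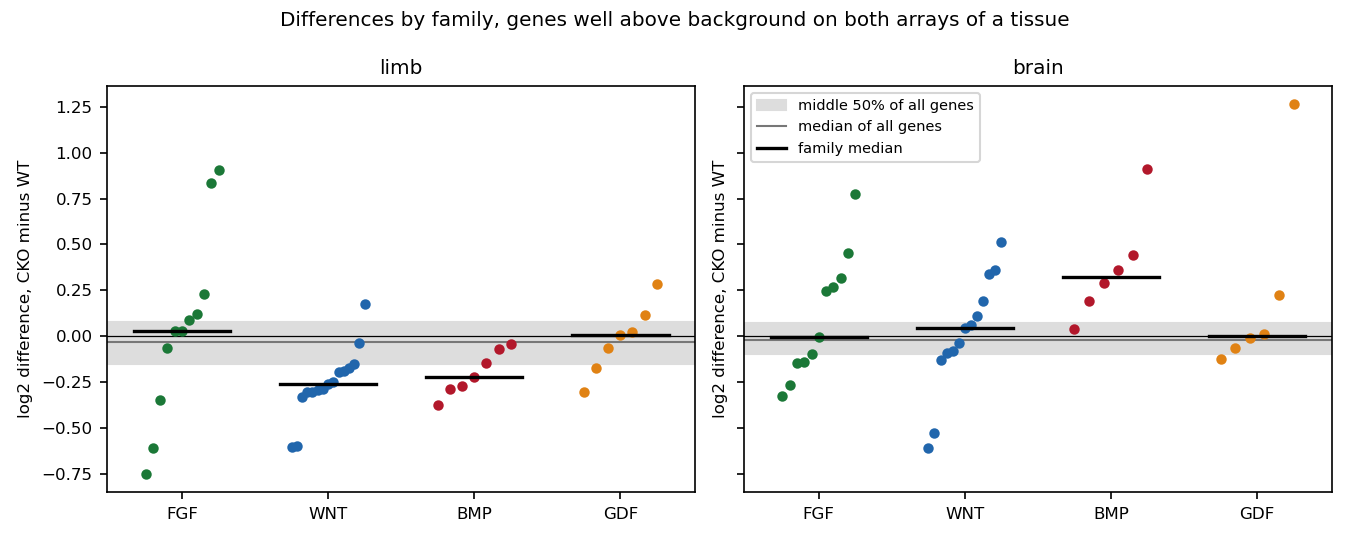
Log2 difference of CKO minus WT in limb (left) and brain (right) for genes well above background on both arrays of the tissue, 1 point per gene, with family medians as black bars and the middle 50% of all genes in grey. In limb 14 of 15 Wnt and 7 of 7 Bmp points lie below 0; in brain 6 of 6 Bmp points lie above 0.

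The third comparison, CKO brain against WT brain, had Gdf10, Bmp5 and Fgf10 higher in CKO, and Gdf6 lower. Of 44 members above background on at least 1 brain array, 1 was at least 2-fold higher (Gdf10), where 1.37% of all genes were, and 2 at least 2-fold lower (Gdf6 and Fgf22), where 1.22% were. At 1.5-fold, 4 were higher (3.51% of all genes) and 3 lower (1.97%).

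Gdf10, also called Bmp3b, had -1.41 in CKO brain and -2.68 in WT brain, a difference of 1.26 or 2.40-fold, with 1 spot per array. The raw spot means were 485.3 in CKO brain and 231.3 in WT brain, against local backgrounds of 55.0 and 58.0. In limb it differed by -0.17. Gdf6, which patterns joints, skull and retina, went the other way. It was not above background in CKO brain and had -2.32 in WT brain, so that CKO was at least 14.7-fold lower. The raw spot mean was 79.1 in CKO brain and 285.4 in WT brain, over local backgrounds of 54.0 and 62.0. This is 1 spot of 1 probe, and it carried no outlier flag on either array. In limb Gdf6 had -2.16 in CKO and -1.86 in WT. With normexp the bound for Gdf6 in brain was -2.07 log2.

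Bmp5, a ligand of skeletal condensations and of dorsal midline tissue, had -3.03 in CKO brain and -3.94 in WT brain, a difference of 0.91 or 1.88-fold, against -2.17 in CKO limb and -1.90 in WT limb (-0.27). Another Bmp5 probe was above background in CKO brain (-5.21) but stayed in the background in WT brain, at least 0.15 log2 higher, and the last was not above background on any array. With normexp the brain difference of Bmp5 was 0.46. Fgf10 had -2.95 ± 0.11 in CKO brain and -3.73 ± 0.14 in WT brain (SD over 10 spots), a difference of 0.77 ± 0.07 with all 10 spots higher, and 0.36 with normexp. Its limb difference was 0.22 ± 0.07 over 9 spots.

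This dimmer Bmp5 probe is shown with the matching probe of Bmp6, its closest relative among these genes together with Bmp7, since both positions span far more than their 60 bases and the probes resemble each other. They share 34 of 59 bases, in capitals, at a shift of 1 base. The Bmp5 probe lies at mm9 chr9:75675966-75687359 and the Bmp6 probe at chr13:38561625-38576768, both on the plus strand.
Bmp5 probe: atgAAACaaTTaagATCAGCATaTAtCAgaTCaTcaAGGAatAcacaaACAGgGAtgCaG
Bmp6 probe: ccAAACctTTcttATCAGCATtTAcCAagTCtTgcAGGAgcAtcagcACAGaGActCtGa
The Bmp6 probe also passed in CKO brain (-5.41) and missed in WT brain, but its bound was 0, since the lowest signal called above background in WT brain was -5.36. The brightest Bmp6 probe differed by 0.44 in brain.

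All 6 Bmp genes measured on both brain arrays were above WT in CKO brain, with a median of 0.33 and a range of 0.04 to 0.91, while 42.6% of all 17086 genes measured were above and their median was -0.02. Under normexp 5 of 6 were above. Besides Bmp5 and Bmp6, Bmp4 differed by 0.36 ± 0.09 and Bmp7 by 0.31 ± 0.04 on its 10-spot probe, and both were higher on all 10 spots. Bmp2 was above background in CKO brain (-4.86 ± 0.24, 10 spots) and on 1 of 9 spots in WT brain (-5.63 ± 0.27), at least 0.50 log2 higher. The protease Bmp1 differed least, by 0.04.

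Wnt genes in brain had no shared direction, with 7 of 13 above WT and a median of 0.04. Wnt1, a signal of the midbrain-hindbrain boundary and dorsal midline, had -4.75 ± 0.16 in CKO brain and -5.61 ± 0.28 in WT brain. All 10 spots were above background in CKO brain and none of 8 in WT brain, at least 0.61 log2 or 1.53-fold higher; in limb it was not above background, at -6.56 in CKO and -6.50 in WT. With normexp the bound was 0.09. Wnt8b of the cortical hem was lower in CKO brain, with a difference of -0.61, at -4.88 in CKO brain and -4.27 in WT brain. This is a dim probe with 1 spot per array, and with normexp the difference was -0.37. The forebrain markers Emx2 and Lhx2 were lower in CKO brain as well, with differences of -0.31 and -0.36. The part of forebrain tissue in the Wnt8b difference was not tested. Wnt11 differed by 0.51 and Wnt9b by -0.53, both under 1.5-fold.

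The remaining Fgf genes in brain gave no shared direction. Fgf22, a synapse-organizing Fgf, was not above background in CKO brain and had -4.99 in WT brain, at least 2.22-fold lower in CKO. Its other probe was not above background on any array, and the averaged probes gave no fold. The brain-restricted Fgf15 was above WT in CKO brain by 0.45, while Fgf3 differed by -0.01 and Fgf14 by 0.27. The 2 other probes of Fgf14 differed by -0.03 and -0.01, and the 2 probes of Fgf9 by 0.32 and -0.01. In brain 11 members had more than 1 probe measured on both arrays, and all but these 2 genes had probes of the same sign.

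Several lists of markers of tissues outside the brain were higher in CKO brain, as the Bmp genes were. The Gdf genes had no shared direction in brain, with 3 of 6 above WT. The 4 erythroid markers were all lower in CKO brain, with a median of -0.43. All 5 cartilage markers measured on both arrays and the sixth, Matn1, as a bound, were above WT in CKO brain, with a median of 4.05 over those 5. Col9a1 was 33.7-fold, Cnmd 17.1-fold, Acan 16.6-fold and Col2a1 3.27-fold higher, while Sox9, which the brain also expresses, differed by 0.02. The summed signal was 3.83 log2 in CKO brain and 2.64 in WT brain. Matn1 was not above background in WT brain. The single cartilage levels spanned -2.45 to 2.77 in CKO brain and -7.12 to 2.0 in WT brain. The 4 meningeal markers were above WT too, by a median of 1.08, with a summed signal of 5.90 in CKO brain and 5.71 in WT brain. That sum was nearly all Zic1, at 5.84 in CKO brain and 5.68 in WT brain, which differed by 0.16. Foxc1, Foxc2 and Twist1 differed by 0.89, 1.67 and 1.27. The inner ear genes Oc90 and Otor were higher by 6.71 and 2.83, with a summed signal of 2.65 in CKO brain and -2.61 in WT brain. The limb mesenchyme factors Tbx4, Tbx5, Hoxd13 and Hoxa13 were not above background on either brain array, and Prrx1, a factor of limb and head mesenchyme, was higher by 1.02. The rest of that list did not share this size or direction: Prrx2 differed by 0.61, Shox2 by 0.07 and Pitx1 by -0.16. The part of these tissues in the Gdf10, Bmp, Fgf10 and Gdf6 differences was not tested.

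**Figure D5:**
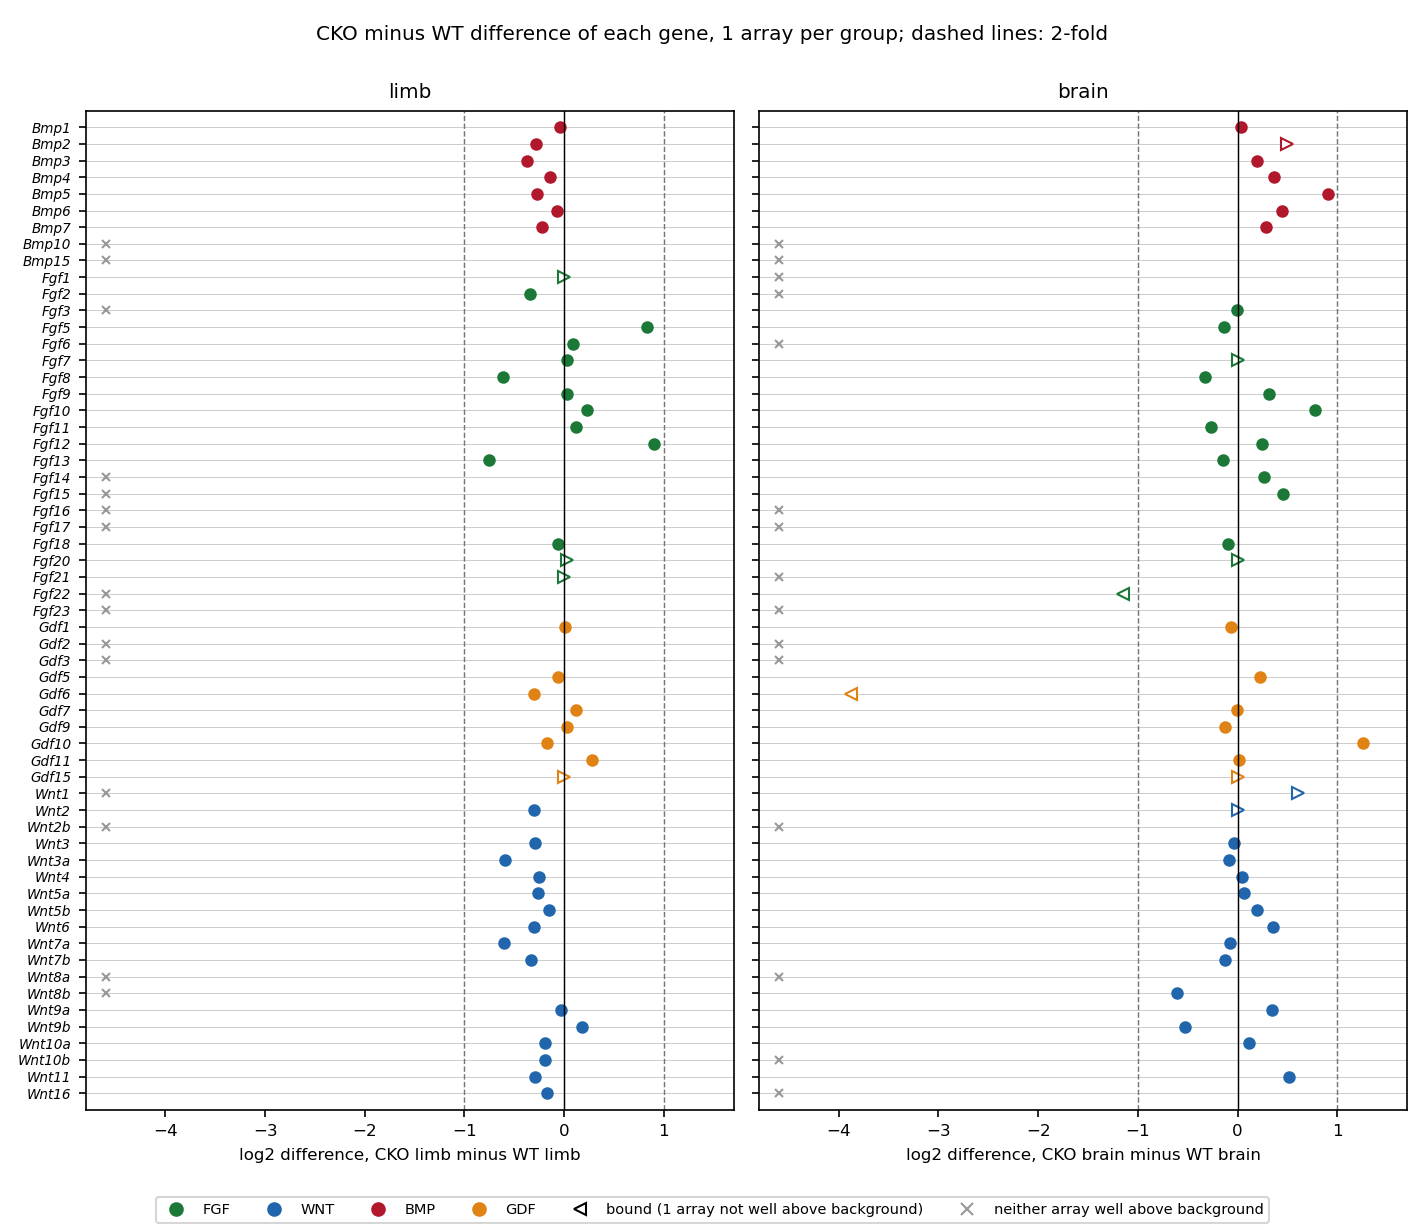
Log2 difference of CKO minus WT for each of the 59 genes in limb (left) and brain (right), coloured by family; triangles are bounds, crosses mark genes not well above background on either array, and dashed lines mark 2-fold. No limb point passes the dashed lines, and in brain Gdf10 lies above while Gdf6 and Fgf22 lie below them.

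The fourth comparison set CKO against WT over both tissues in the same limma fit. None of the 32 members fitted passed, and none of the 15629 genes did (0.0%). The lowest adjusted p of a member was 0.67, for a fit with 1 residual degree of freedom. At an unadjusted limma p under 0.05 there was 1 of the 32 members, Fgf8, and 6.26% of all genes. Its limma difference was -0.47 (SE 0.10, adjusted p = 0.67). Fgf12 had a limma difference of 0.57 (SE 0.21, adjusted p = 0.67), Gdf10 0.55 (SE 0.45, adjusted p = 0.70) and Fgf10 0.50 (SE 0.18, adjusted p = 0.67). Without the filter on dim probes limma put 3 members past the threshold, Bmp10, Fgf23 and Wnt8a, none of them above background on any array. The other 7 alternatives gave none.

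Receptors for these ligands had list medians near 0 for CKO against WT. Of 7 genes on the Fgf receptor list, 1 reached 2-fold: Fgfr4, a receptor of muscle precursors, was higher by 1.06 in CKO brain (-2.07, against -3.13 in WT brain) and by 0.73 in CKO limb (2.18, against 1.45 in WT limb). The 4 muscle markers were above WT in CKO limb by 0.37 to 0.62, and in CKO brain Acta1 and Tnnt3 by 0.68 and 0.95. In brain Myog passed on the CKO array alone, at least 0.69 higher, and Myod1 was not above background on either array. The part of muscle cells in the Fgfr4 difference was not tested. None of 15 Wnt receptors and none of 11 Bmp and Gdf receptors reached 2-fold in limb or brain, with medians within 0.05 of 0 in both tissues. Over all genes, 2.51% were at least 2-fold higher and 2.15% lower in CKO limb, and 1.37% higher and 1.22% lower in CKO brain. A count of none in lists this short is near those shares and is not read as a trait of the receptors. The 2 Wnt secretion genes Porcn and Wls differed by -0.27 to 0.34.

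Of 14 Bmp and 13 Wnt antagonists, 1 was at least 2-fold higher in CKO brain, where 1.37% of all genes were, and 1 at least 2-fold lower in CKO limb, where 2.15% were. Chrdl1, which binds Bmp proteins, was higher by 1.14 in CKO brain (-1.66, against -2.80 in WT brain) and by 0.88 in CKO limb (-0.32, against -1.21 in WT limb). Dkk4, an inhibitor of the Wnt co-receptors, was lower in CKO limb (-5.0, against -4.0 in WT limb, a difference of -1.0) and not above background in brain. The other antagonists stayed under 2-fold, with list medians of -0.09 to 0.01 in limb and brain.

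All 10 Wnt targets were lower in CKO limb, with differences of -0.56 to -0.07 and a median of -0.28, where the median of all genes was -0.03 and 58.9% were lower. Axin2, a feedback inhibitor induced by Wnt signalling, had -0.04 in CKO limb and 0.52 in WT limb. In brain 7 of 10 Wnt targets and 7 of 10 Bmp targets were above WT, with medians of 0.06 and 0.23, where 42.6% of all genes were above and their median was -0.02. Msx2, a homeobox gene induced by Bmp signalling, reached 2-fold at -1.93 in CKO brain and -2.95 in WT brain. It was 1 of 10 Bmp targets, where 1.37% of all genes were at least 2-fold higher. In limb 6 of 10 Bmp targets were lower, with a median of -0.14. The 13 Fgf feedback and target genes had medians of -0.02 in limb and -0.01 in brain. None of them reached 2-fold, where at most 2.51% of all genes did in a given direction. None of the targets of any list could be tested within a tissue.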

How the data were processed

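The deposited scanner files hold linear intensity values, and the submitters' processing notes name Agilent Feature Extraction 9.5.3.1. Per the file headers the authors' processed intensity is background-subtracted within each array, and probe positions are on mm9. Control spots and spots flagged as outliers were left out, log2 was taken, and each array's 75th percentile was subtracted. The spots of a probe were averaged. A probe counted as above background when over 50% of its spots were called so by the scanner software. Where 1 array of a pair was not, the difference is a bound against that array's lowest detected signal or the probe's own, whichever was higher, and 0 where it pointed the other way.

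Tests used limma 3.58.1 in R 4.3.3, tested on simulated data, with an adjusted p threshold of 0.05. Depth has no counterpart on arrays: their number limits the precision. Named were members at least 1.5-fold different, or past a test, in the 10 largest each way, with Bmp1 and Fgf11 to Fgf14. The genes and lists were chosen with earlier results of these data known. The alternatives were normexp (offset 50), quantile and median scaling, the mean of probes, other filters, the deposited series table, a limma trend and each probe fitted. Probes were matched to genes by accession or symbol against RefSeq tables. One marker gene is not reported here.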

Additional observations from a re-analysis of the deposited data

Results flagged for a closer look

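Gdf10 differed by 1.26 log2 between CKO brain and WT brain and differed by -0.17 between CKO limb and WT limb, so the brain difference exceeded the limb difference by 1.43. Bmp5 was higher in CKO brain by 0.91 and differed by -0.27 in limb, a gap of 1.18. With 1 array per group, neither gap between the tissues was tested. A probe that the array names after an unplaced clone, and that its accession assigns to Fgf12, was outside the name rule. It was above background in CKO limb at -4.19 and not in WT limb, at least 0.76 log2 higher, and in brain it had -2.50 in CKO and -2.77 in WT.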

How the results depend on the processing

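No paired analysis was possible because each group has 1 array. Leaving out an array would leave the limma fit no residual degree of freedom. In limb, the mean of all probes put 1 member past 2-fold (Fgf12, 1.08) where the report has 0, and at 1.5-fold there were 6. In brain, normexp left 1 member of 3 past 2-fold (Gdf6), a filter for detection on both arrays left 1 (Gdf10), and at 1.5-fold there were 7. In the genotype test, no filter on dim probes put 3 members past the threshold, Bmp10, Fgf23 and Wnt8a, which were not above background on any array. The other settings of these counts stayed within 1.5 times. The tissue test called 26 to 39 members under the 8 alternatives. Of 65 alternative values for the 13 named genotype differences none reversed and 16 moved by more than the spot SD, each under normexp, which made them smaller, or the mean of all probes, which took Fgf22 to 0, Fgf13 to -0.09 and Bmp5 to 0.57. Of 224 for the tissue differences of 32 members none reversed, 4 lost the call (Bmp6 with the mean of probes, and Gdf10, Wnt3a and Wnt9b without the filter on dim probes) and 6 gained it (for Bmp5, Fgf8 and Fgf9). For dim probes a spot difference had a median SD of 0.31 log2, against 0.02 to 0.03 for bright ones.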
